A study of Mus musculus with 18 samples.

Results

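The balance of ribosome footprints against total RNA was measured, gene by gene, in mouse medulloblastoma cells that had received only the solvent DMSO. Of the 18 libraries of the study, 6 belong to these cells, namely all 3 footprint and all 3 RNA libraries labelled DMSO. The cells are the GTML line, cultured in neurobasal medium with B27, EGF and bFGF. The line descends from a mouse model of medulloblastoma named GLT1-TRE-MYCN/Luciferase, in which a human MYCN transgene acts in progenitors of the hindbrain. All groups therefore carry human MYCN, and no group without it was measured, so the values describe MYCN-driven cells of 1 line and not normal progenitors. The other 12 libraries come from the same cells treated for 3 h with 50 nM Rapalink-1 or 5 nM rapamycin, inhibitors of the growth kinase mTOR. One aliquot of each lysate was set aside for total RNA and the rest was used for footprints. The labels do not say whether the replicates came from separate cultures, so p-values measure the spread between these samples, which may be technical.

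A ribosome shields a short stretch of mRNA from nuclease, and the number of such footprints on a gene reflects how many ribosomes its mRNAs carry. Divided by the RNA of the same gene, it gives a ratio that is often called translational efficiency. The ratio is known to be low for mRNAs whose leader holds short upstream reading frames, which capture scanning ribosomes. It is also known to differ between mRNAs that begin with a tract of pyrimidines (TOP mRNAs, which encode the protein synthesis machinery), since the mTOR kinase controls their entry into polysomes.

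After transcript rows were collapsed, the footprint libraries held 7692843 to 14150512 reads and the RNA libraries 6788662 to 11211373, and RNA replicate 3 was the shallowest. Levels below are counts scaled to library size (CPM, as in edgeR), scaled with TMM factors. Correlations of log2 CPM between replicates of 1 assay lay between 0.987 and 0.995. They were taken over the 3534 genes with a mean of at least 50 CPM, so genes of lower level did not enter them. The ratio is given as log2 of footprints over RNA ± standard error from edgeR's quasi-likelihood fit of the 3 footprint and 3 RNA libraries, and p-values carry a Benjamini-Hochberg adjustment for the 11100 genes tested. No spike-in is recorded, so a ratio of 0 means the typical ratio of these libraries, and scaling by library totals instead of TMM lowered the median ratio by 0.13. Which part of each transcript the authors counted is not stated in the labels.

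The ratio differed between genes far more than between replicates. Footprints differed from RNA past an adjusted p of 0.05 for 7913 of 11100 genes (71.3%), with 3903 genes (35.2%) holding more footprints than RNA and 4010 genes (36.1%) fewer. At least 2-fold more footprints were found for 1526 genes (13.7%) and at least 2-fold fewer for 1570 (14.1%). When only the 8381 genes with a coefficient of variation of at most 20% in each assay were kept, these counts were 884 and 1017. The ratio had a 5th percentile of -1.68 and a 95th percentile of 1.87 on the log2 scale, an 11.7-fold range. Among the 3534 genes with a mean of at least 50 CPM, these percentiles were -1.32 and 1.68, an 8.02-fold range. RNA itself spanned 142-fold between the same percentiles and footprints 178-fold, and across genes the 2 levels correlated with an r of 0.90, where all genes share the same 6 libraries. Ratios computed from each numbered pair of footprint and RNA libraries correlated across genes with r between 0.91 and 0.94. Counts within gene lists below are to be read beside the shares of all genes, 35.2% with more footprints and 36.1% with fewer.

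**Figure D1:**
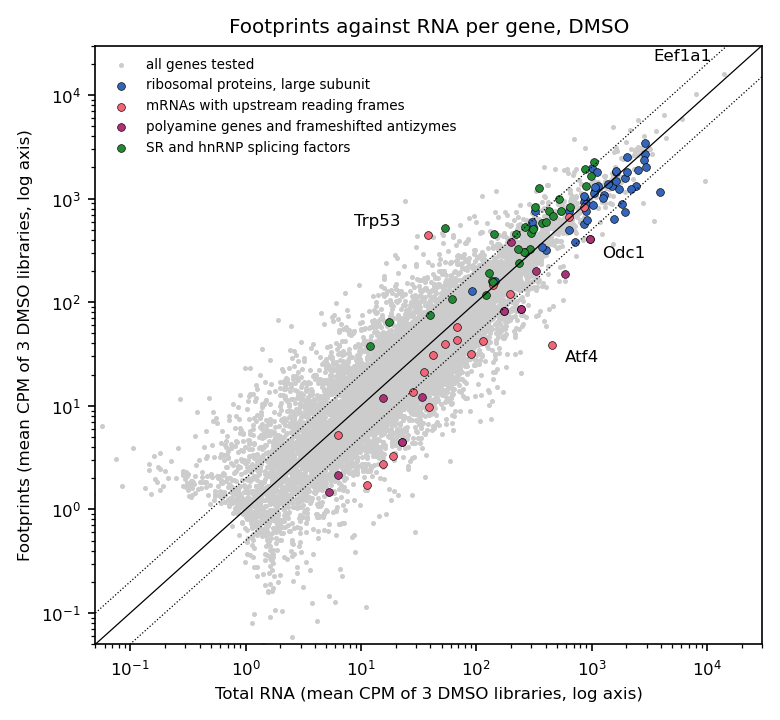
Mean footprint level against mean RNA level of each gene in DMSO (CPM, both axes logarithmic, means of 3 libraries), with 4 gene lists in colour, a solid line at equal levels and dotted lines at a 2-fold difference. Genes at 0 in either assay are not drawn. Atf4 and most of the polyamine genes lie below the lower dotted line, while Trp53 lies above the upper one.

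The list of mRNAs known for upstream reading frames had low ratios. Of 23 members tested, 18 held fewer footprints than RNA, 12 of them at least 2-fold fewer, and 1 held more (3 without RNA replicate 3). The list's median was -1.08, against -0.01 for all genes tested. This median was -1.21 with library totals and -0.91 without RNA replicate 2. Over the 19 members with a coefficient of variation of at most 20% in each assay it was -0.72, with 9 at least 2-fold lower. Atf4, the transcription factor of the amino acid response whose leader frames are a textbook case, lies on chromosome 15 from 80255184 to 80257545 (GRCm38). It had 36.3, 37.3 and 41.3 CPM of footprints and 446, 456 and 461 CPM of RNA in the 3 replicates. Its ratio was -3.57 ± 0.078 (edgeR, adjusted p = 9.4e-31), the lowest of the list and 11.9-fold below equality. All 3 footprint values of Atf4 lay far below all 3 RNA values.

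Other genes of the stress response stood beside it. Ddit3, which encodes the factor CHOP, had 1.76, 1.36 and 2.04 CPM of footprints against 12.4, 9.58 and 11.6 CPM of RNA, a ratio of -2.67 ± 0.23. Atf5, a relative of Atf4, had 2.42, 2.86 and 4.59 CPM of footprints against 17.7, 19 and 20 CPM of RNA, a ratio of -2.53 ± 0.19. Ppp1r15a, the GADD34 subunit that directs dephosphorylation of eIF2, had 7.54, 9.53 and 12.2 CPM of footprints against 34.6, 43.5 and 38.0 CPM of RNA, a ratio of -2.01 ± 0.14. The 3 footprint and 3 RNA values of these genes did not overlap. Slc35a4 (-2.50), Ibtk (-1.49) and Cebpb (-1.08) also held at least 2-fold fewer footprints. Smaller deficits that passed the test were found for Mief1 (-0.72), Ifrd1 (-0.69), Mdm2 (-0.67), Nrf1 (-0.43), Tiparp (-0.42) and Ppp1r15b (-0.23). Trib3 (-0.30), Eprs (-0.06), Eif4g2 (0.07) and Eif5 (0.09) did not pass it. The exception was Eif1, the start codon selection factor, which had 437, 410.3 and 501 CPM of footprints and 32.9, 28.4 and 53.6 CPM of RNA, a ratio of 3.58 ± 0.29. Its RNA values had a coefficient of variation of 35.1%, the largest of the list, and RefSeq names 3 pseudogenes after it.

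The first annotated bases of several of these genes, and of Adipor1 and Vps54, hold an ATG. The stretches below are 30 bases each, 5′ to 3′, from RefSeq's annotated starts (build GRCm38.p6), with capitals on the first ATG and, where a stop codon follows in the same window, on the whole short frame. They are shown because the short frame, or an ATG, can be read in full.
Amd1, chr10:40302149-40302178, minus strand: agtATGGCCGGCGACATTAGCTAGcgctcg
Adipor1, chr1:134415389-134415418, plus strand: ggaATGCCTGGATCGGAGCGGGTGAGGTAG
Ddit3, chr10:127290813-127290842, plus strand: acacgtcgattatatcATGttgaagatgag
Ppp1r15a, chr7:45526219-45526248, minus strand: aagccgcgtggacgATGttggcgcagattg
Ifrd1, chr12:40223140-40223169, minus strand: tagagagaaacATGtatcgtttccgctcgc
Vps54, chr11:21239052-21239081, plus strand: ccggggATGtgggagaggcggcggcagcag

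In Amd1 the frame starts at base 14 of the annotated transcript and holds 6 codons before its stop, the short frame for which this polyamine gene is known. Amd1 had 83.4, 86.2 and 76.6 CPM of footprints and 180.5, 167 and 175 CPM of RNA, a ratio of -1.09 ± 0.072, and its counts cannot be told apart from those of its near-identical copy Amd2. Adipor1, an adiponectin receptor gene that is in none of the lists and was chosen after its values were seen, has a frame of 8 codons from base 15 at 1 of its 2 annotated starts. It had 27.5, 34.3 and 33.2 CPM of footprints against 199.8, 231 and 214 CPM of RNA, a ratio of -2.77 ± 0.085. In the other 4 genes no stop codon follows in frame within the first 50 bases. For these 4 genes, whether this ATG is an upstream or the main start codon was not analysed here. Vps54 is also in none of the lists and is shown because its ratio was among the lowest.

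Across genes, an ATG near the annotated start was more frequent where the ratio was low. Of 7927 genes with a symbol and at least 10 CPM, 4999 had a single annotated start, and 32.2% of these held an ATG on the sense strand in their first 50 bases. With the genes in 5 equal classes, from the lowest ratio to the highest, the share was 35.9, 36.6, 32.9, 29.4 and 26.2%. A frame that both began and ended in those bases was found in 5.72% of the genes, and by class in 8.20, 5.90, 5.31, 4.70 and 4.50%. Among all 22862 RefSeq genes with 1 start, 45.8% held an ATG and 11.5% a complete frame. The median ratio was -0.08 for genes with an ATG and 0.06 for genes without, a small difference beside the spread of ratios. The list for upstream frames had 16 members with a single annotated start, of which 6 held an ATG in this window, while the polyamine list had 1 of 6. An ATG here can also be a main start codon, and an annotated start can lie away from the one these cells use.

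The genes of polyamine metabolism formed the list with the lowest median, -1.49, among lists with at least 5 members tested. Polyamines are small cations made from ornithine, and several of their enzymes and regulators are known to be controlled at translation. Of 11 members tested, 10 held fewer footprints than RNA, 8 of them at least 2-fold fewer, and 1 held more. Over the 9 members with a coefficient of variation of at most 20% in each assay, the median was -1.24. Amd1, Azin1, Odc1 and Sat1, 4 members, are also in the list for upstream frames. Odc1, the enzyme that makes putrescine from ornithine, lies on chromosome 12 from 17544808 to 17551502. It had 413, 407 and 404 CPM of footprints and 967, 945 and 987 CPM of RNA. Its ratio was -1.24 ± 0.064 (edgeR, adjusted p = 9.5e-20), with each RNA library above each footprint library.

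The regulators of Odc1 had lower estimates than Odc1 itself. Oaz1, the antizyme that sends the Odc1 protein to the proteasome and needs a ribosomal frameshift to be made, had 166, 199 and 202 CPM of footprints against 588, 588 and 594 CPM of RNA, a ratio of -1.64 ± 0.073. Oaz2, a second antizyme, had 10.8, 11.8 and 13.6 CPM of footprints against 31.9, 36.7 and 33.7 CPM of RNA, a ratio of -1.51 ± 0.12. Azin1, the antizyme inhibitor, had 96.6, 88.1 and 74.4 CPM of footprints against 251, 232 and 247 CPM of RNA, a ratio of -1.49 ± 0.079, and its relative Azin2 had a ratio of -1.85 ± 0.29. Differences between the ratios of single genes were not tested.

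The enzymes that break polyamines down were also low. Sat1, the acetyltransferase that starts polyamine catabolism, had 4.10, 3.13 and 6.22 CPM of footprints against 22, 22.2 and 23.5 CPM of RNA, a ratio of -2.31 ± 0.17. Smox, the spermine oxidase, had a ratio of -1.56 ± 0.25 and Paox, the acetylpolyamine oxidase, -0.40 ± 0.15. The synthases split in direction. Sms, which makes spermine, had a ratio of -0.69 ± 0.068, while Srm, which makes spermidine, had 373, 379 and 381 CPM of footprints against 204, 184 and 217 CPM of RNA, a ratio of 0.91 ± 0.070 (edgeR, adjusted p = 1.8e-14).

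**Figure D2:**
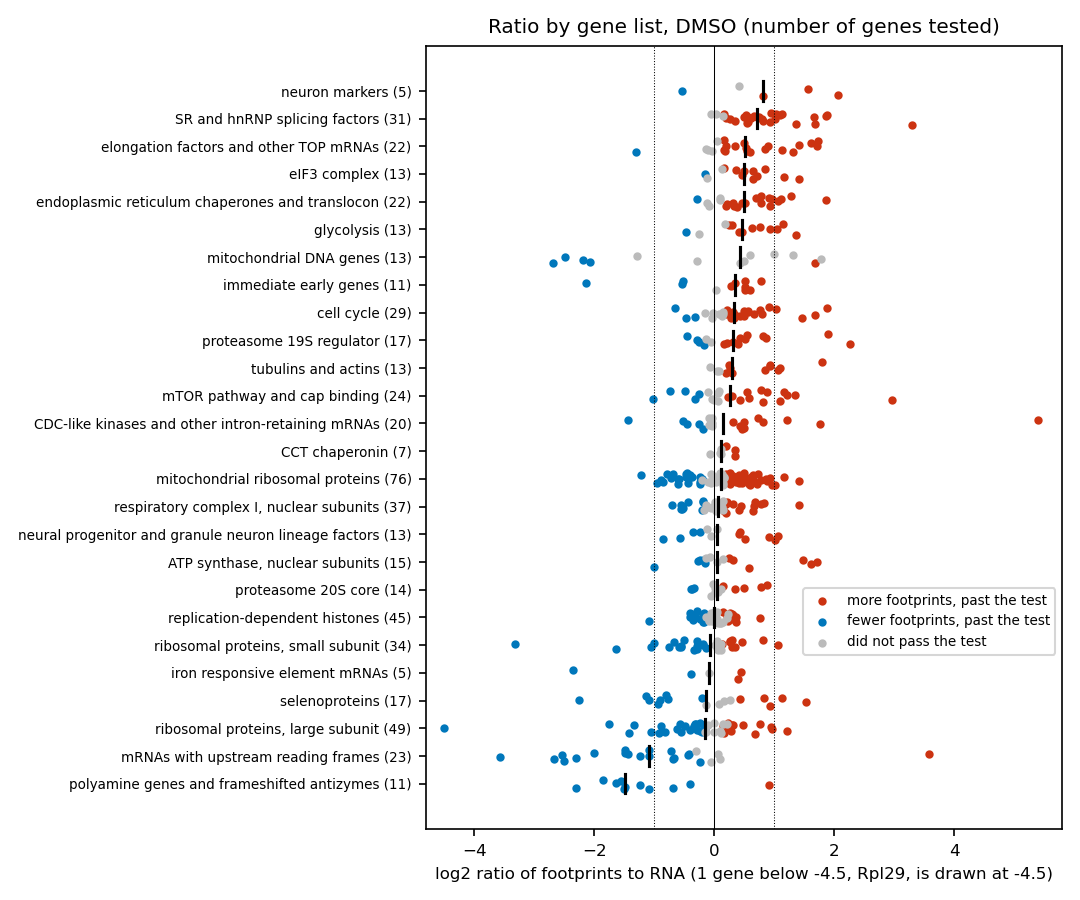
Log2 ratio of footprints to RNA for each member of the gene lists with at least 5 members tested, ordered by median (black bars), with members past the test in red (more footprints) or blue (fewer) and the others in grey; points are spread vertically only for legibility. The polyamine list and the list for upstream frames lie lowest, with medians of -1.49 and -1.08, and the splicing factors, with 28 of 31 members holding more footprints, lie near the top. With library totals in place of TMM the medians of the ATP synthase, complex I, mitochondrial ribosomal protein, 20S core, CCT and neural lineage lists fell below 0, and that of the histone list, which was 0.00, was -0.13.

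Cytosolic ribosomal proteins did not share a ratio, although most of them enter the ribosome in equal numbers and their mRNAs share the TOP motif. Of 49 large-subunit genes tested, 16 held more footprints than RNA and 24 fewer, with 1 at least 2-fold more and 5 at least 2-fold fewer, and the median was -0.15; with library totals 9 held more and 27 fewer, with a median of -0.29. Of 34 small-subunit genes, 9 held more and 17 fewer, with a median of -0.07; with library totals these were 7, 17 and -0.20. Of all genes tested, 35.2% held more footprints and 36.1% fewer. At least 2-fold more were held by 13.7% and at least 2-fold fewer by 14.1%. Calls in both directions are therefore not particular to ribosomal proteins. Summed over their genes, the large-subunit list took 5.44 ± 0.21% (SD, n = 3) of footprints and 6.85 ± 0.13% of RNA, and the small-subunit list 3.89 ± 0.086% and 4.77 ± 0.10%.

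The stalk and its base were among the lowest. Rplp0, which anchors the stalk that recruits elongation factors, had 1056, 1162 and 1236 CPM of footprints against 3768, 4082 and 3846 CPM of RNA, a ratio of -1.76 ± 0.065 (edgeR, adjusted p = 2.5e-24). Its partners Rplp1 and Rpl12 had ratios of -1.42 ± 0.071 and -1.33 ± 0.064, while Rplp2, the other stalk protein, had 0.28. Rpsa, the laminin receptor protein of the small subunit, had 884, 920.3 and 907 CPM of footprints against 2827, 2799 and 2781 CPM of RNA, a ratio of -1.63 ± 0.061. RefSeq names 12 pseudogenes after Rpsa, and how the authors assigned reads shared with such copies is not stated in the labels.

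Rps2 was lower still, with 17.2, 15.5 and 12.5 CPM of footprints against 139, 186 and 130.4 CPM of RNA, a ratio of -3.32 ± 0.18, but RefSeq also names 12 pseudogenes after it. For Rpl29 no footprint was counted in any DMSO library, against 8.27, 8.21 and 7.65 CPM of RNA. Set against a floor of 3 counts over the 3 footprint libraries, this is at least 82.6-fold lower. Both levels are far under those of most ribosomal protein genes, 5 RefSeq pseudogenes carry the name Rpl29, and the values of Rps2 and Rpl29 are therefore uncertain.

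At the other end, Rpl28 had 705, 731 and 823 CPM of footprints against 327, 285 and 365 CPM of RNA, a ratio of 1.21 ± 0.078. Rps16 had 851, 861 and 925 CPM of footprints against 392, 372 and 494 CPM of RNA, a ratio of 1.07 ± 0.082. Rpl39 (0.95), Rps13 (0.81), Rpl36al (0.77) and Rpl6 (0.68) also held more footprints than RNA, and RefSeq names 5 pseudogenes after Rps13. The 3 footprint and 3 RNA values did not overlap for 38 of the 49 large-subunit genes and 27 of the 34 small-subunit genes, where 73.4% of all genes tested did not overlap.

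The other TOP mRNAs, a list of elongation factors and further proteins, leaned the other way as a list. Of 22 tested, 17 held more footprints than RNA and 1 fewer, with a median of 0.51. With library totals 13 held more and 4 fewer, with a median of 0.38, and 3 held fewer in the fit of all 18 libraries and 2 with the replicate block. Eef1a1, which delivers aminoacyl-tRNA to the ribosome, had the highest footprint level among all genes with a symbol. It had 16135, 16101 and 15992 CPM of footprints against 13873, 14582 and 13996 CPM of RNA, a ratio of 0.18 ± 0.054 (edgeR, adjusted p = 0.0025) that became 0.05 and did not pass the test with library totals. Eef2, the translocation factor, had 3903, 4227 and 4044 CPM of footprints against 2838, 2989 and 2788 CPM of RNA, a ratio of 0.50 ± 0.059. The other elongation factors of the list had 0.19 (Eef1d), -0.11 (Eef1b2) and -0.13 (Eef1g), and Eef1b2 and Eef1g did not pass the test. Members such as Cct2, Eif3f and Eif3h are counted again in the CCT or eIF3 list.

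Tpt1, a small tumour-associated protein with a classic TOP mRNA, had 1885, 1907 and 1895 CPM of footprints against 520.5, 574 and 622 CPM of RNA, a ratio of 1.73 ± 0.067, and RefSeq names 7 pseudogenes after it. Nap1l1, a histone chaperone, had a ratio of 1.72 ± 0.069. Pabpc1, the poly(A)-binding protein, had 923, 866 and 844 CPM of footprints against 231, 238 and 394 CPM of RNA, a ratio of 1.61 ± 0.26, with the highest RNA value in replicate 3. Eif4a2 was the member with fewer footprints, 156, 149.5 and 153 CPM against 369, 393 and 365 CPM of RNA, a ratio of -1.30 ± 0.068. Its close relative Eif4a1, the helicase that opens mRNA leaders, had 4336, 4574 and 4477 CPM of footprints against 3531, 3824 and 3498 CPM of RNA, a ratio of 0.30 ± 0.058.

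Among the 13 subunits of eIF3, the scaffold that joins mRNA to the small subunit, 10 held more footprints than RNA and 1 fewer, with a median of 0.49. The count of fewer was 2 with library totals or all 18 libraries and 0 without footprint or RNA replicate 1 or 2. Eif3f (1.41 ± 0.071) and Eif3b (1.17 ± 0.075) held at least 2-fold more. Of 24 genes of the mTOR pathway and of cap binding, 13 held more footprints and 5 fewer (3 without footprint replicate 1), with a median of 0.27. Mtor itself, with 51.8, 61.8 and 50.7 CPM of footprints and 53.3, 55.1 and 47.5 CPM of RNA, did not pass the test (0.06 ± 0.091), and its estimate was -0.07 with library totals and -0.02 without footprint replicate 2. Rptor (1.16 ± 0.092), the subunit that defines mTORC1, and Larp1 (1.10 ± 0.071), the repressor that binds TOP mRNAs, held at least 2-fold more footprints.

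Tsc2 (1.22) and Deptor (1.35), both of them restraints on mTOR, also held at least 2-fold more, while Tsc1 (-0.26) held fewer. Rps6kb1, the S6 kinase, had 39.2, 38.5 and 36.2 CPM of footprints against 78.4, 75.2 and 78.5 CPM of RNA, a ratio of -1.02 ± 0.085. Eif4e, the cap-binding protein, had a ratio of 0.55 ± 0.068. Its inhibitors differed from each other. Eif4ebp1 had 60.3, 62.6 and 67.2 CPM of footprints and 60.3, 55.6 and 64.9 CPM of RNA, overlapping values with a ratio of 0.08 ± 0.085 that was -0.05 with library totals. Eif4ebp2 had 22.4, 20.4 and 20.9 CPM of footprints and 1.41, 3.16 and 3.97 CPM of RNA, a ratio of 2.97 ± 0.21 with a coefficient of variation of 46.0% in RNA.

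Splicing factors of the SR and hnRNP families held more footprints than their RNA level. Of 31 tested, 28 held more, 10 of them at least 2-fold more, and none fewer, with a median of 0.71; with library totals 25 held more and 1 fewer. Together they took 1.86 ± 0.013% (SD, n = 3) of footprints and 1.13 ± 0.0086% of RNA. Ptbp1, the polypyrimidine tract binding protein of progenitor cells, lies on chromosome 10 from 79854432 to 79864435. It had 447, 441 and 467 CPM of footprints against 139.9, 146 and 142 CPM of RNA, a ratio of 1.66 ± 0.069 (edgeR, adjusted p = 8.1e-23). Its neuronal relative Ptbp2 had a ratio of 0.20.

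Hnrnpc, which binds uridine tracts in nascent RNA, had 819, 825 and 864 CPM of footprints against 302, 348 and 328 CPM of RNA, a ratio of 1.36 ± 0.068. Hnrnpu, a nuclear scaffold protein, had 2349, 2233 and 2165 CPM of footprints against 1074, 1012 and 1061 CPM of RNA, a ratio of 1.10 ± 0.062. Both had well separated values. Hnrnpd, the AU-rich element binding protein, had the highest ratio of the family, 3.30 ± 0.19, with 535, 505 and 518 CPM of footprints and 52.1, 40.4 and 67.2 CPM of RNA, and its RNA coefficient of variation of 25.2% was the single one above 20% in the list. Srsf9 (-0.06), Hnrnpr (0.03) and Tra2a (0.14) did not pass the test. Of 20 CDC-like kinases and other mRNAs known to retain introns, 10 held more footprints and 5 fewer (9 and 8 with library totals). Luc7l2, a U1-associated factor, had a ratio of 1.77 ± 0.074 and Clk4, a kinase of SR proteins, -1.44 ± 0.10.

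Chaperones and folding enzymes of the endoplasmic reticulum, with the translocon, held more footprints than RNA in 17 of 22 genes and fewer in 1 (15 and 3 with library totals; fewer in 0 without footprint or RNA replicate 2), with a median of 0.49. Pdia3, a disulfide isomerase of glycoproteins, had 959, 828 and 817 CPM of footprints against 228, 237 and 254 CPM of RNA, a ratio of 1.86 ± 0.072. Glycolytic enzymes did so in 10 of 13 genes, with 1 lower and a median of 0.47. Eno1, enolase, had 1819.7, 1833 and 1779 CPM of footprints against 668, 686 and 747 CPM of RNA, a ratio of 1.37 ± 0.064. Tubulins and actins held more in 10 of 13 genes and fewer in none (8 and 1 with library totals), and Actg1, a cytoplasmic actin, had a ratio of 1.80 ± 0.064 and Actb 1.10 ± 0.061.

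Of 29 cell cycle genes, 19 held more footprints and 3 fewer (17 and 5 with library totals), with a median of 0.33. Plk1, a kinase of mitotic entry, had 258, 279 and 285 CPM of footprints against 72.6, 67.2 and 82.2 CPM of RNA, a ratio of 1.89 ± 0.077. Rrm2, the inducible subunit of ribonucleotide reductase, had 435, 414 and 394 CPM against 154, 147 and 149 CPM, a ratio of 1.47 ± 0.069. Ccnd1, cyclin D1, had 35.6, 35.5 and 37.2 CPM of footprints and 17.7, 17.5 and 17.4 CPM of RNA, a ratio of 1.04 ± 0.11. In each of these genes all footprint values lay above all RNA values.

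The proteasome was described by its 19S regulator and its 20S core, and the difference between the 2 lists was not tested. Of 17 genes of the 19S regulator, 11 held more footprints and 4 fewer, with a median of 0.31, and Psmc4, an ATPase of its base, reached 2.27 ± 0.081. Of 14 genes of the 20S core, 5 held more and 3 fewer, with a median of 0.04 that was -0.09 with library totals. Of 7 subunits of the chaperonin CCT, which folds actin and tubulin, 3 held more and none fewer, with ratios from -0.07 to 0.34 and a median of 0.11 that was -0.02 with library totals, where 2 held more and 1 fewer. In the fit of all 18 libraries 6 held more.

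Genes of the mitochondrial genome, whose mRNAs are read by the mitochondrion's own ribosomes, varied most between replicates. Their summed share was 0.321, 0.548 and 0.814% of footprints and 1.73, 1.45 and 2.27% of RNA. The coefficient of variation of RNA was above 20% for 10 of the 13 genes, with a median of 46.7%. Of these 13 genes, 4 held fewer footprints and 1 more, against 5 and 4 in the fit of all 18 libraries and 5 and 3 by DESeq2. Without RNA replicate 3, 2 held more. The cytochrome oxidase gene mt-Co1 had 822, 1523 and 2120.3 CPM of footprints against 9529, 7826 and 11509 CPM of RNA, a ratio of -2.69 ± 0.44 (edgeR, adjusted p = 0.0051), and mt-Co3 had -2.49 ± 0.42. The list's median of 0.43 had the opposite sign, and by replicate pair it was -0.28, 1.05 and 0.17. The call for mt-Nd6 (1.68 ± 0.36) was lost without RNA replicate 1 (1.65, adjusted p = 0.056) or without RNA replicate 2 (1.57, adjusted p = 0.055).

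Nuclear genes of mitochondria showed no common direction. Of 37 complex I genes, 13 held more footprints and 11 fewer; of 15 ATP synthase genes, 6 more and 5 fewer; of 76 mitochondrial ribosomal protein genes, 32 more and 23 fewer. With library totals the balance turned, to 9 and 14 for complex I, 5 and 7 for ATP synthase, and 25 and 27 for mitochondrial ribosomal proteins. For ATP synthase 3 held fewer without RNA replicate 1, RNA replicate 3 or footprint replicate 2. Within ATP synthase the spread was wide. Atp5d, the delta subunit, had 239, 262 and 283 CPM of footprints against 77, 78.8 and 84.5 CPM of RNA, a ratio of 1.71 ± 0.075. Atp5k, the e subunit, had 67.5, 64.7 and 73.5 CPM of footprints against 125, 141 and 147 CPM of RNA, a ratio of -1.0 ± 0.077, and RefSeq names 4 pseudogenes after it.

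Replication-dependent histones, whose mRNAs end in a stem-loop in place of a poly(A) tail, sat near equality. Of 45 tested, 13 held more footprints and 12 fewer, with a median of 0.00 (9, 19 and -0.13 with library totals; 6 fewer without footprint replicate 1), and they made up 7.52 ± 0.39% (SD, n = 3) of footprints and 7.90 ± 0.41% of RNA. Histone genes are near-identical in sequence, so the value of a single one is uncertain. Among 17 selenoprotein genes, whose UGA codons are read as selenocysteine, 5 held more and 8 fewer. Sephs2, which makes the selenium donor and is itself a selenoprotein, had 41.9, 45.2 and 50.6 CPM of footprints against 219, 219.8 and 214 CPM of RNA, a ratio of -2.25 ± 0.078. Gpx1, glutathione peroxidase, had -1.14 ± 0.073, and Selenon 1.54 ± 0.12.

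The mRNAs with iron responsive elements split. Ftl1, ferritin light chain, whose leader element binds iron regulatory proteins, had 85.3, 103 and 86.0 CPM of footprints against 441, 488 and 473 CPM of RNA, a ratio of -2.36 ± 0.077 (edgeR, adjusted p = 8.9e-26). Fth1, ferritin heavy chain with the same kind of element, had 212, 229.6 and 207 CPM of footprints against 131, 159 and 188 CPM of RNA, a ratio of 0.44 ± 0.10. Tfrc, the transferrin receptor, whose elements lie behind the coding region, had 0.39 ± 0.070. So the 2 ferritin chains, which assemble together, had ratios of opposite sign, and RefSeq names 2 pseudogenes after Ftl1. Of 11 immediate early genes tested, 7 held more footprints and 3 fewer, and Jund, a component of AP-1, was the lowest, with 44.6, 51.7 and 51.9 CPM of footprints against 218, 225 and 206 CPM of RNA and a ratio of -2.14 ± 0.077.

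The 10 lowest ratios among genes that met the naming rule (called, at least 50 CPM on average, no shared counts, no overlap) belonged to Gcom1, Vps54, Cenpb, Snx25, Atf4, Ryk, Rps2, Csnk1g2, Asnsd1 and Abhd17a, from -3.96 to -2.95, and the value of Rps2, after which 12 pseudogenes are named, is uncertain. Vps54, a subunit of the complex that tethers vesicles at the Golgi, lies on chromosome 11 from 21239032 to 21321133. It had 9.66, 11.7 and 8.88 CPM of footprints against 128, 123 and 134 CPM of RNA, a ratio of -3.68 ± 0.10. Cenpb, which binds centromeric repeats, had 13.8, 15.1 and 12.1 CPM of footprints against 172, 182 and 163 CPM of RNA, a ratio of -3.66 ± 0.091. Ryk, a receptor for Wnt ligands, had 22.3, 21 and 18.6 CPM of footprints against 238, 242 and 254 CPM of RNA, a ratio of -3.56 ± 0.084, and RefSeq names 1 pseudogene after it. In all 3 the RNA was steady and the footprints were more than 10-fold lower. Asnsd1 overlaps a second annotated gene, Asdurf, so their reads may not be separable. The same holds for Vps54, which overlaps Ugp2, Gm18817 and Gm23582, and for Csnk1g2, which overlaps Gm31298. For Gcom1 no coordinates were matched, so its overlaps are not known.

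Among the 10 highest ratios, 9 are given here, those of Sf3a2, Gatad2b, Cherp, Srrm1, Trp53, Ly6e, Fkbp1a, Eif1 and Anp32b, from 4.15 to 3.52. Sf3a2, of the U2 snRNP, had 122, 121 and 128 CPM of footprints against 6.16, 5.56 and 10.1 CPM of RNA, a ratio of 4.15 ± 0.12. Trp53, the tumour suppressor p53, on chromosome 11 from 69580348 to 69591873, had 432, 429 and 446 CPM of footprints against 25.4, 30.2 and 35.9 CPM of RNA, a ratio of 3.85 ± 0.091 (edgeR, adjusted p = 1.2e-27). RefSeq names 1 pseudogene after Trp53. Fkbp1a, the protein to which rapamycin binds, had 272, 257 and 262 CPM of footprints against 13.5, 22 and 25.8 CPM of RNA, a ratio of 3.72 ± 0.23, and RefSeq names 4 pseudogenes after it.

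**Figure D3:**
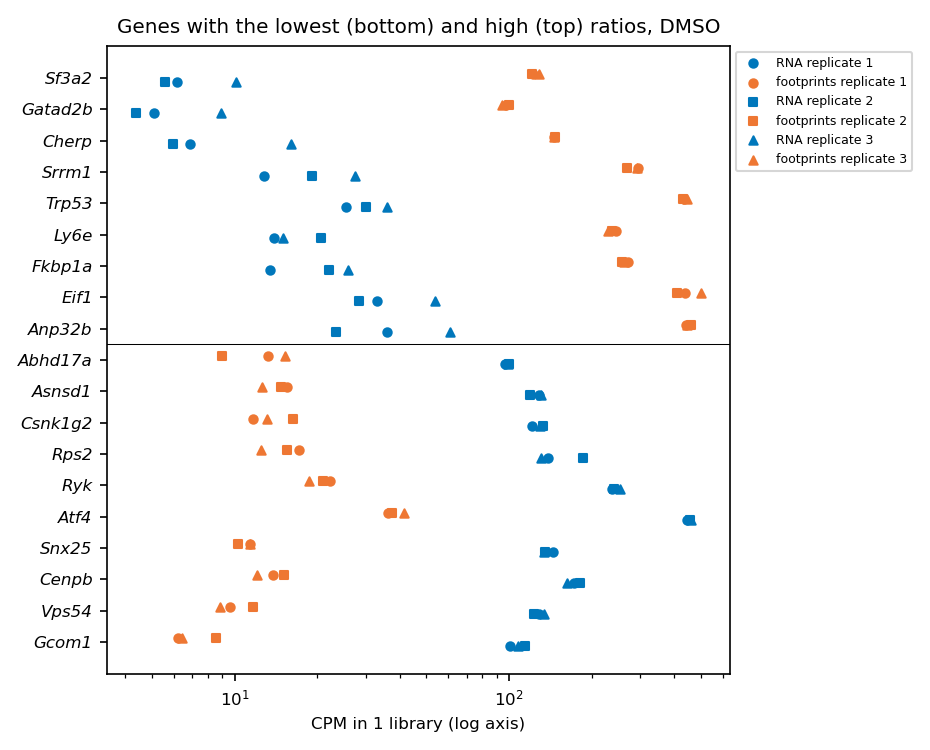
CPM in each DMSO library (logarithmic axis) of 9 of the 10 genes with the highest ratios (top) and of the 10 with the lowest (bottom), with footprints in orange, RNA in blue and 1 symbol per replicate. Footprints and RNA are separated for each gene; the RNA of the top genes is spread, with replicate 3 highest in most (10.1 CPM for Sf3a2 against 6.16 and 5.56), and that of the bottom genes is closer together except for Rps2 (139, 186 and 130.4 CPM).

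The high ratios go with an RNA level that varied between replicates. Among the 26 genes of at least 50 CPM with a log2 ratio above 3, the median coefficient of variation was 25.2% in RNA and 3.35% in footprints. It was above 20% in RNA for 18 of them (69.2%), and RNA replicate 3 was the highest of the 3 RNA libraries in 25. Between 2 and 3, 85 genes had a median of 12.3% in RNA, with replicate 3 highest in 69. Between -1 and 0, 1230 genes had a median of 5.14%, and below -3, 11 genes had 4.83%. In footprints the median was 11.1% for the 11 genes below -3. The floor of 50 CPM was set on the mean of the 6 libraries. A gene near it with a high ratio therefore has little RNA, as Sf3a2 with a mean of 7.26 CPM. Counting noise is larger at low levels, and its part in the spread of RNA was not tested. RefSeq names a pseudogene after 6 of the 26 genes above 3 (23.1%), against 2.35% of the genes between 2 and 3, 4.96% of those between -1 and 0, and 18.2% (2 of 11) of those below -3, so this share was high at both ends. The part of these features in the high ratios was not tested.

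**Figure D4:**
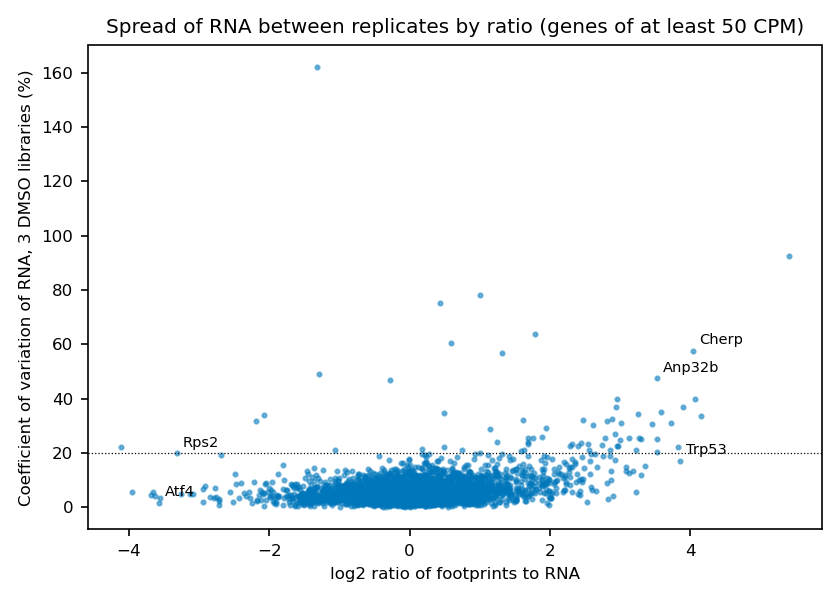
Coefficient of variation of RNA over the 3 DMSO libraries (percent) against the log2 ratio of footprints to RNA, 1 point per gene with a mean of at least 50 CPM (3534 genes), with a dotted line at 20%. Above a ratio of 3, 18 of 26 genes lie over the line, whereas between -1 and 0 the median is 5.14%.

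When only genes with a coefficient of variation of at most 20% in each assay were kept, a choice made after seeing the data, the highest ratios belonged to Trp53, Snrpd3, Fam98b, Arhgdia, Acadl, Naf1, Acta2, Atp6v0c, Tomm6 and Scd1. Arhgdia, which holds small GTPases in the cytosol, had 432, 457 and 507 CPM of footprints against 47.8, 49.4 and 53.3 CPM of RNA, a ratio of 3.22 ± 0.079. Scd1, the desaturase that makes oleate, had 662, 670.5 and 617 CPM of footprints against 86.8, 83.5 and 90.7 CPM of RNA, a ratio of 2.90 ± 0.073 (edgeR, adjusted p = 3.4e-29). Both assays were steady for these 2 genes.

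Among the 10 genes with the most footprints, 9 are given here, namely Eef1a1, Npm1, Hspa8, Ubb, Hsp90ab1, Actb, Eif4a1, Eef2 and Rps3a1. Their ratios ran from -0.19 to 1.69. Hsp90ab1, a cytosolic chaperone, had 5084, 5007 and 4719 CPM of footprints against 1463, 1486 and 1649 CPM of RNA, a ratio of 1.69 ± 0.062. Ubb, a polyubiquitin gene, had 1.18 ± 0.062. Hspa8, a constitutive chaperone, did not pass the test at -0.03 ± 0.056, although it did with library totals (-0.16, adjusted p = 0.0095). Rps3a1, at -0.19 ± 0.062, did not pass it without RNA replicate 2 (-0.11, adjusted p = 0.12).

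Mycn, on chromosome 12 from 12936093 to 12941836, had 685, 750.3 and 726 CPM of footprints and 775, 765 and 806 CPM of RNA. Its ratio of -0.12 ± 0.064 did not pass the test (edgeR, adjusted p = 0.097), whereas with library totals it was -0.25 (adjusted p = 0.00067) and in a fit of all 18 libraries -0.11 (adjusted p = 0.036). Reads of the human transgene may be counted in this row, and their share was not determined. Lineage factors of the cerebellar progenitors were present in both assays. Otx2, a homeobox factor of the developing hindbrain, had 136, 142 and 139 CPM of footprints against 61.9, 68.3 and 69.3 CPM of RNA, a ratio of 1.06 ± 0.074. Neurod1, which drives granule neuron differentiation, had 0.92 ± 0.074, Zic2 1.02 ± 0.084, and Hes6 -0.85 ± 0.076.

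Of 28 lineage factors listed, 13 had a row with a symbol, of which 6 held more footprints and 4 fewer (2 without RNA replicate 1). Among markers of other cells, those with a row were 1 of 11 for oligodendrocytes, 3 of 14 for microglia and blood, 1 of 15 for vessels and fibroblasts, and 5 of 12 for neurons. Symbols come from the authors' tables, so a marker without a row is not thereby at 0. The markers of microglia and blood summed to 0.00533 to 0.00803% of footprints and 0.0125 to 0.0172% of RNA. Itgam, a microglia marker, had the highest level of them, with 74.3, 53.4 and 80.7 CPM of footprints and 99.8, 75.8 and 111 CPM of RNA. Its ratio of -0.44 ± 0.22 did not pass the test, which left out the pairing of the libraries. With the replicate block it did (-0.46, edgeR, adjusted p = 6.4e-07). It also passed with no count filter (-0.43), in the fit of all 18 libraries (-0.42), and without footprint replicate 2 (-0.29) or RNA replicate 2 (-0.59). The haemoglobin gene Hbb-bs had 0.805, 1.23 and 2.14 CPM of footprints against 26.7, 25 and 31.6 CPM of RNA, a ratio of -4.35 ± 0.22, and Hbb-bt had a ratio of -3.96 ± 0.22 with the same footprint values but other RNA values (21.2, 19.4 and 22.8 CPM), so their footprints cannot be told apart. Neuron markers summed to 0.0254 ± 0.00014% (SD, n = 3) of footprints and 0.0132 ± 0.00015% of RNA, and of the 5 tested, 3 held more footprints and 1 fewer. They ran from Slc17a7, a vesicular glutamate transporter, at -0.53 ± 0.13 to Syp, a synaptic vesicle protein, at 2.06 ± 0.091. Acta2, smooth muscle actin, the single vascular marker with a row, had 308, 272 and 289.8 CPM of footprints against 32.8, 30.5 and 40.3 CPM of RNA.

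Much of the ranking of genes in DMSO was also found in the treated cells, whose 12 libraries are separate from the DMSO ones. The values in this and the next paragraph are on 1 scale for all 18 libraries, and no test was made of them. The column names mark the footprint libraries of DMSO and Rapalink-1 as RP-B and those of rapamycin as RP. What this label means is not stated, and a difference that goes with it cannot be told apart from that of rapamycin. For each gene the mean of 3 footprint libraries was divided by the mean of 3 RNA libraries. Only the SDs were taken over the 3 replicate pairs. Over the 3534 genes of at least 50 CPM the ratio in DMSO correlated with that in rapamycin with an r of 0.95 and with that in Rapalink-1 with an r of 0.80. Of 301 genes at least 2-fold lower in DMSO, 241 were so in rapamycin and 206 in Rapalink-1, where 8.09% and 14% of all the genes were. Of 418 genes at least 2-fold higher in DMSO, 334 and 320 were so, where 10.8% and 12.5% of all the genes were.

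The lists parted by treatment. The list for upstream frames had medians of -1.03 in DMSO, -0.84 in rapamycin and -0.69 in Rapalink-1, and the splicing factors 0.72, 0.67 and 0.79. The large-subunit ribosomal proteins had -0.14, -0.51 and -2.32. Atf4 had -3.54 ± 0.08 (SD, n = 3 pairs) in DMSO, -3.52 ± 0.08 in rapamycin and -3.72 ± 0.12 in Rapalink-1, which are nearly equal. Oaz1 was as steady, at -1.63 ± 0.15, -1.58 ± 0.14 and -1.60 ± 0.06. Odc1, the target of Oaz1, had -1.23 ± 0.04, -1.47 ± 0.01 and -3.82 ± 0.03, with the Rapalink-1 pairs apart from the rest. Pabpc1 had 1.62 ± 0.48, 0.08 ± 0.05 and -1.32 ± 0.09, and Trp53 3.83 ± 0.22, 3.66 ± 0.02 and 4.27 ± 0.04.

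**Figure D5:**
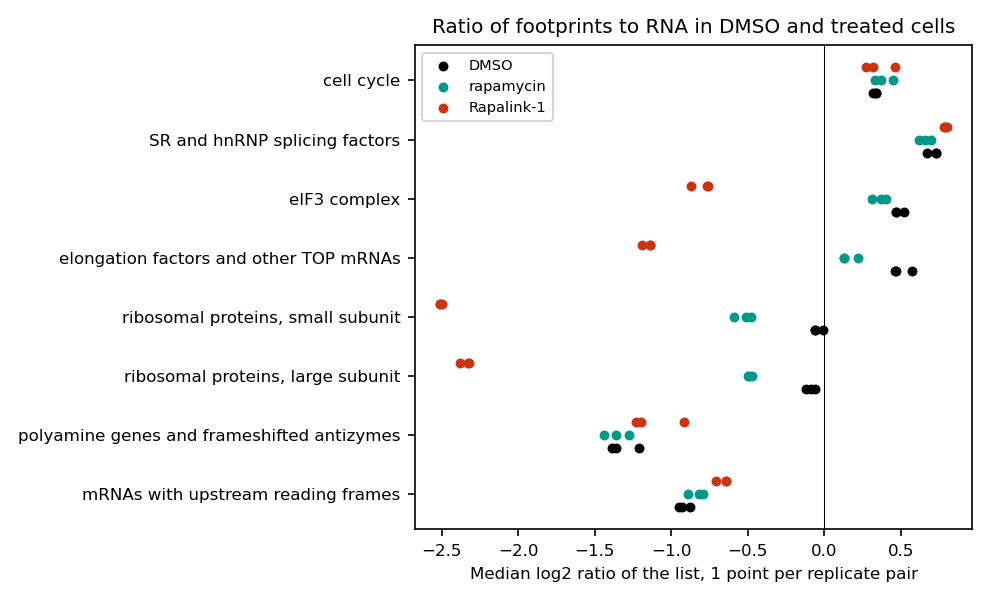
Median log2 ratio of footprints to RNA of 8 gene lists, 1 point per replicate pair, for DMSO (black), rapamycin (green) and Rapalink-1 (red). The list for upstream frames and the polyamine list are low in all 3 groups, while the ribosomal protein lists lie near 0 in DMSO and between -2.51 and -2.32 in Rapalink-1.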

How the data were processed

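Per the labels, an aliquot of each lysate was taken for total RNA, and libraries of both assays were made with the ARTseq kit. The deposited table holds raw read counts per transcript as made by the authors, on mouse build GRCm38 per the submitters' processing notes; for the aligner, annotation and counted region no statement was found in the labels or headers. Of 27382 transcript rows, 6378 were 0 in all libraries. Rows of 1 gene, or with equal counts from 20 reads on, were joined to 17698 features, of which 9787 had a symbol from the authors' tables (9469 of these matched RefSeq); features without a symbol (about 2% of reads) stayed in the fits. Where a gene's rows differed (62 features), the row with most reads was kept. Genes with counts within 5 percent or 5 reads of another's in all libraries (107 features), or shared by several symbols (16), were marked as uncertain.

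Genes passed filterByExpr of edgeR 4.0.16 (R 4.3.3; minimum count 10, total 15; 11100 genes). The 3 DMSO footprint and 3 DMSO RNA libraries were fitted with glmQLFit (robust) and tested with glmQLFTest, with TMM factors. On simulated counts for this comparison (10993 genes after the filter), 97 of 100 genes changed 2-fold and 98 of 100 changed 4-fold were recovered, with 3 false calls. The simulation gave all genes the same dispersion and changed few of them. These figures therefore do not carry over to the data, where most genes differed. DESeq2 1.42.0 was an alternative. Same-numbered footprint and RNA libraries, which share a lysate per the labels, deviated together (correlations 0.277, 0.268 and 0.275 over 3534 genes), so the numbers pair the samples. Treated cells were described as log2 of CPM plus 0.5.

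The 30 gene lists and the comparison were chosen with earlier results of these data known. Genes named were the 10 highest and 10 lowest ratios and the 10 with most footprints, up to 4 per list with the smallest p, and a set always given; some genes that the rule selects are not reported here. Other list members, and genes named for steady values or for their sequence, were named beyond that rule after their values were seen. Of 24 noncoding RNAs listed, 0 had a row with a symbol. Coding, leader and protein lengths, and with them subunit stoichiometry, were not analysed here.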

Additional observations from a re-analysis of the deposited data

How the results depend on the processing

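Of 138 genes named by the rule, 128 kept their direction and their side of the threshold under every alternative run. With library totals in place of TMM, 3302 genes held more footprints and 4700 fewer (41.3% of calls higher, against 49.3%), and the estimates of 3 genes that did not pass the test changed sign, to -0.02 for Cct5, -0.05 for Eif4ebp1 and -0.07 for Mtor; with each library left out in turn, Mtor ranged from -0.02 (without DMSO footprint replicate 2) to 0.12 (without footprint replicate 3). The shift of all ratios is what this scaling does by construction. Genes with a coefficient of variation of at most 20% in each assay, an alternative chosen after seeing the data, left 8381 genes, of which 884 held at least 2-fold more footprints and 1017 at least 2-fold fewer; fewer genes enter here. Leaving out each library in turn gave 3685 to 3871 genes with more footprints, 3793 to 3934 with fewer, 1522 to 1601 with at least 2-fold more and 1577 to 1612 with at least 2-fold fewer. With the replicate block, 3953 genes held more footprints and 4055 fewer, and of the named genes the pairing changed the call of Itgam alone (-0.44, adjusted p = 0.14, without it; -0.46, adjusted p = 6.4e-07, with it). The 4 counts over all genes (more, fewer, and at least 2-fold more or fewer) stayed within 1.5 times the reported ones with DESeq2, its size factors, other filters, TMM without ribosomal protein and mitochondrial genes, all 18 libraries and summed rows. Counts within single lists moved by more in some, as given beside them. As to depth, 3 counts over the 3 footprint libraries correspond to 0.0974 CPM, and lower levels were not detectable.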
